A study of Homo sapiens with 36 samples.

Results

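The compound 3A4 was compared with the compound 1E5 in PANC-1, an established human line from a pancreatic ductal adenocarcinoma, across all genes that passed a filter on low counts. The comparison set 3 libraries with 3A4 against 3 libraries with 1E5, which are 6 of the 36 RNA sequencing libraries of the series. Of 58243 genes in the deposited table, 18544 passed the filter and were tested. Both compounds were given at 10 µM for 48 h, so dose and time match, and they form the only pair of compounds set against each other here. They are known here by code name alone, and the labels class each of them as an LXR inverse agonist. The other PANC-1 groups were GW3965, a synthetic LXR agonist given at the same dose and time, and the vehicle DMSO, with 3 libraries each. The 3A4 and 1E5 libraries of MIA PaCa-2 and BxPC-3, other human pancreatic adenocarcinoma lines, with 3 per group, served to test whether the compound difference depended on the line. The labels give no genotype and name no further agent for any group. They call the libraries of a group biological replicates without saying whether each came from its own culture. Every p-value below therefore sets a difference against the spread among the libraries at hand, and that spread may be technical. The spread was estimated over all libraries of a fit, not only over the groups compared.

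The liver X receptors, encoded by NR1H3 and NR1H2, are nuclear receptors for oxysterols. Bound by an agonist they turn on genes of sterol export and fatty acid synthesis, and an inverse agonist is a ligand that lowers a receptor's activity below the level it has without ligand. Other programmes that the comparison covers are the integrated stress response, in which the transcription factor ATF4 raises genes of amino acid supply, and the unfolded protein response, which raises chaperones of the endoplasmic reticulum. The cell cycle genes described below are switched on by E2F factors before DNA is copied and by a later wave of factors before cells divide.

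The PANC-1 libraries held 14960984 to 24843670 counts with 3A4, 23800129 to 26026684 with 1E5, 25045707 to 25671661 with GW3965 and 20560783 to 25672556 with DMSO. The lowest total was that of 3A4 replicate 3. The library of 1E5 replicate 2 stood apart from the others of its group, with a chi-square per degree of freedom of 139.6 and 96.0 against 1E5 replicates 1 and 3, which differed from each other by 37.0. The 3 pairs of 3A4 libraries differed by 15.4 to 17.9. Counts of calls that moved by more than 1.5 times without 1E5 replicate 2 are also given without it. The keratin genes KRT8, KRT18 and KRT19, EPCAM and VIM were expressed in every PANC-1 library with 3A4, 1E5 or DMSO. CDKN2A, which this line has lost, had no count in any of these libraries. Of 24 genes that mark blood, vessel, fibroblast, liver, endocrine, acinar or red cells, 9 had no count with 3A4, 15 with 1E5 and 14 with DMSO. Their summed level was 77.7 to 101 CPM with 3A4, 67.3 to 140 with 1E5 and 91.0 to 217 with DMSO. CPM values are counts relative to the TMM-scaled library total and are compared between libraries, not between genes.

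Of the 18544 genes, 6914 differed between 3A4 and 1E5 at an edgeR adjusted p under 0.05, which is 37.3% of all genes tested, and 7286 did without 1E5 replicate 2. With 3A4, 3422 genes were higher (18.5%) and 3492 were lower (18.8%). These shares are the background for each list count of 3A4 against 1E5 in PANC-1 below. Among them 1831 were higher and 1506 lower by at least 2-fold, 742 and 379 by at least 4-fold, and 286 and 122 by at least 8-fold. The median log2 fold change was 1.08 among the genes called higher, -0.90 among those called lower and 0.00 over all genes, with a median SE of 0.242. Of the genes called, 6743 had no overlap between the 3 libraries of each group. Over all genes, 4663 lay above without overlap (25.1%) and 4434 below (23.9%). Among the 11630 genes that did not pass, the 95% interval of the difference lay within 2-fold for 5905 and reached 2-fold for 5724, and 1 gene had no interval. A p that misses the threshold does not show that the compounds act alike on those genes. Of 13963 protein-coding genes 41.1% were called, of 2477 long non-coding RNA genes 23.7% and of 1732 pseudogenes 28.8%.

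**Figure D1:**
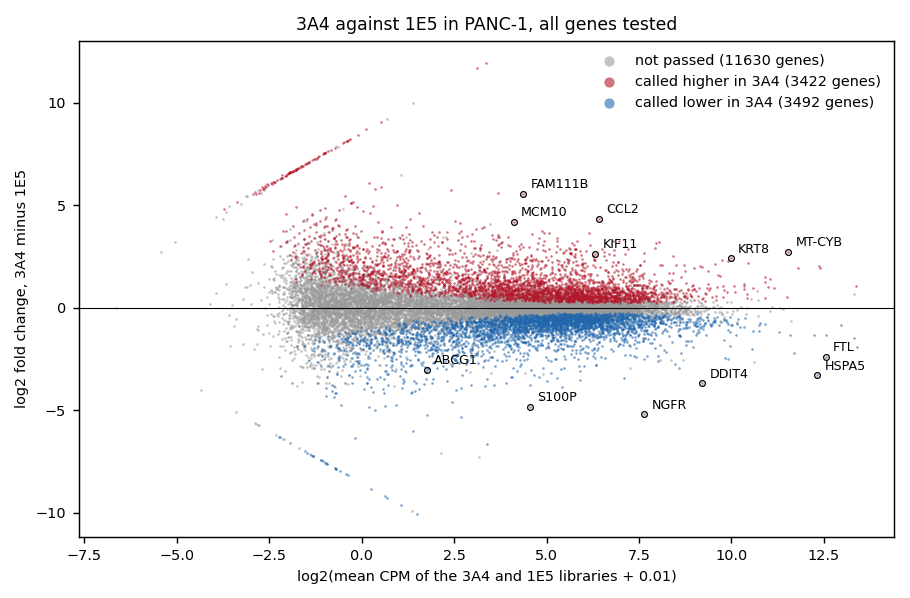
Log2 fold change of 3A4 over 1E5 (vertical axis) against the log2 of the mean level in CPM (horizontal axis) for the 18544 genes tested in PANC-1, 1 point per gene, with 3422 genes called higher in red, 3492 called lower in blue and the rest grey. Calls spread over the whole range of levels on both sides of 0, and the slanted lines at the left are genes with no count in one of the groups, whose fitted fold changes are no measured folds.

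Genes that answer to LXR were compared first, since both compounds carry the same label. ABCG1, a sterol exporter (ENSG00000160179; chromosome 21, 42199689 to 42297244 in GRCh38), had 0.883, 0.626 and 0.703 CPM in the 3A4 libraries, against 5.40, 8.17 and 4.41 CPM in the 1E5 libraries. All 3A4 libraries lay below all 1E5 libraries (log2 fold change -3.01 ± 0.290 SE, edgeR adjusted p = 2.15e-05). Its level was 41.5 ± 2.53 CPM with GW3965 and 1.16 ± 0.364 CPM with DMSO (SD, n = 3). On the log2 scale ABCG1 with 3A4 differed from DMSO by -0.65, which did not pass. With 1E5 it was above DMSO by 2.36 (edgeR adjusted p = 6.37e-05). ABCA1, the related exporter that loads lipid onto apolipoproteins, had 6.10, 10.1 and 9.26 CPM with 3A4, against 11.2, 6.44 and 10.1 CPM with 1E5. Those libraries overlapped, and the log2 fold change of -0.13 had a 95% interval of -0.70 to 0.44 (edgeR adjusted p = 0.740). MYLIP, whose product sends the LDL receptor to be degraded, was at 16.5 ± 0.706 CPM with 3A4, against 17.5 ± 0.873 CPM with 1E5, a difference of -0.08 on the log2 scale with an interval of -0.32 to 0.16. For ABCA1 and MYLIP the whole interval lay within 2-fold.

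The receptor genes themselves were lower with 3A4 than with 1E5. NR1H2 had 41.2, 41.9 and 35.2 CPM with 3A4, against 61.1, 60.1 and 56.0 CPM with 1E5 (log2 fold change -0.58 ± 0.106 SE, edgeR adjusted p = 0.00135), and no library of one group reached the other. NR1H3 had 7.43, 6.96 and 8.18 CPM with 3A4, against 12.8, 10.4 and 13.7 CPM with 1E5 (log2 fold change -0.71 ± 0.202 SE, edgeR adjusted p = 0.0171). That call ended without 3A4 replicate 1 (edgeR adjusted p = 0.0529), without 3A4 replicate 2 (0.0624), without 1E5 replicate 3 (0.0594) and in the fit of all 36 libraries (0.0766). With DMSO they stood at 40.1 ± 2.93 CPM for NR1H2 and 6.64 ± 1.65 CPM for NR1H3, from which 3A4 differed by -0.02 and 0.18 on the log2 scale (edgeR adjusted p = 0.925 and 0.643).

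The LXR targets with a role in fat synthesis gave mixed results. FASN, the synthase of palmitate, was higher with 3A4, at 584, 691 and 577 CPM with 3A4, against 209.8, 403 and 179 CPM with 1E5, and no 1E5 library reached the lowest 3A4 library (log2 fold change 1.23 ± 0.240 SE, edgeR adjusted p = 0.00208). LPCAT3, which puts polyunsaturated fatty acids into phospholipids, was also higher, at 36.6 ± 1.87 CPM with 3A4, against 17.3 ± 1.44 CPM with 1E5 (log2 fold change 1.08 ± 0.101 SE, edgeR adjusted p = 1.77e-05). SCD, the desaturase that makes oleate, had 1531, 2521 and 1655 CPM with 3A4, against 529, 3298 and 594 CPM with 1E5. One 1E5 library, replicate 2, lay above all 3A4 libraries and the other two lay below all of them (log2 fold change 0.37 ± 0.571 SE, edgeR adjusted p = 0.651; 95% interval -0.88 to 1.62). Without 1E5 replicate 2 SCD passed the test with a log2 fold change of 1.75 (edgeR adjusted p = 0.000724). SREBF1, the regulator of fatty acid synthesis genes, showed the same split among the 1E5 libraries, with 67.1, 92.2 and 69.5 CPM with 3A4, against 47.1, 158 and 41.9 CPM with 1E5 and a log2 fold change of -0.11 (95% interval -1.02 to 0.81), against 0.77 without 1E5 replicate 2 (edgeR adjusted p = 0.0170). With DMSO the levels of FASN, SCD and SREBF1 were 1456 ± 21.3 CPM, 8245 ± 2855 CPM and 197 ± 54.8 CPM.

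Of 15 LXR targets measured, of 21 listed, 3 were higher with 3A4 (20%), 4 were lower (26.7%) and 8 did not pass. Over all genes 18.5% were higher and 18.8% lower, which is near these shares. The median log2 fold change of the list was -0.11. Without 1E5 replicate 2, 5 were higher. PLTP, which transfers phospholipids between lipoproteins, was also lower, at 10.2, 17.8 and 12.7 CPM with 3A4, against 59.4, 94.9 and 78.0 CPM with 1E5, with every 3A4 library below every 1E5 library (log2 fold change -2.51 ± 0.376 SE, edgeR adjusted p = 3.8e-04). MLXIPL, which encodes the sugar-sensing factor ChREBP, was among the 4 called lower (-2.25) and was chosen after its value was seen.

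Genes of cholesterol synthesis and uptake were higher with 3A4 in 11 of 26 cases, with 1 lower and 14 that did not pass (median 0.53). ACAT2, which makes acetoacetyl-CoA, had 88.5, 89.6 and 89.0 CPM with 3A4, against 17.3, 28.1 and 17.8 CPM with 1E5 (log2 fold change 2.08 ± 0.176 SE, edgeR adjusted p = 1.01e-05). LSS, lanosterol synthase, was 2.40-fold higher and SC5D, a sterol desaturase, 2.86-fold higher (edgeR adjusted p = 3.87e-05 and 3.13e-04). In these 3 genes the 3A4 libraries lay above the 1E5 libraries without overlap. The count of this list rested on 1 library, since it was 22 of 26 without 1E5 replicate 2 and 7 with only the 6 compared libraries in the fit. The single gene called lower was SCAP, the escort of the SREBP factors (-0.50, chosen after its value was seen).

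Of 21 fatty acid synthesis genes 7 were higher with 3A4 and 1 was lower (median 0.18), and 11 were higher and 2 lower without 1E5 replicate 2. Leaving out 3A4 replicate 2 or 1E5 replicate 2 gave 2 lower. FADS2, a desaturase of polyunsaturated fatty acids, had 199, 309.6 and 207 CPM with 3A4, against 48.6, 86.4 and 53.9 CPM with 1E5 (log2 fold change 1.92 ± 0.241 SE, edgeR adjusted p = 1.21e-04), and LPIN1, a phosphatidate phosphatase, was 2.43-fold higher (edgeR adjusted p = 7.75e-05). ACACA, acetyl-CoA carboxylase, was higher by 0.87 on the log2 scale and ME1, which makes NADPH, differed by -0.93 (edgeR adjusted p = 5.82e-04 and 2.88e-04). Of 16 lipid droplet genes and PPAR targets 3 were higher (18.8%) and 4 lower (25%), near the 18.5% and 18.8% of all genes. ANGPTL4, a secreted inhibitor of lipoprotein lipase, had 34.7, 66.7 and 42.6 CPM with 3A4, against 3.62, 20.8 and 5.22 CPM with 1E5 (log2 fold change 2.29 ± 0.540 SE, edgeR adjusted p = 0.00630), and its log2 fold change was 3.43 without 1E5 replicate 2. PLIN4, a droplet coat protein, had 9.32, 12.3 and 8.75 CPM with 3A4, against 61.3, 37.9 and 61.1 CPM with 1E5 (log2 fold change -2.40 ± 0.242 SE, edgeR adjusted p = 2.88e-05). The 2 genes went in opposite directions, and in neither did the groups overlap.

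The genes of mitosis were the list with the largest share called. All 30 were higher with 3A4 than with 1E5, against 18.5% of all genes tested, with log2 fold changes of 1.27 to 3.43 and a median of 2.28. KIF11, the kinesin that pushes spindle poles apart (ENSG00000138160; chromosome 10, 92593286 to 92655395), had 134, 141 and 139 CPM with 3A4, against 20.4, 24.6 and 21.3 CPM with 1E5 (log2 fold change 2.64 ± 0.149 SE, edgeR adjusted p = 1.13e-06). ESPL1, the separase that releases sister chromatids, had 65.3, 77.8 and 70.3 CPM with 3A4, against 5.52, 7.77 and 6.58 CPM with 1E5 (log2 fold change 3.43 ± 0.224 SE, edgeR adjusted p = 2.25e-06). AURKA, a kinase of the centrosome, and BUB1B, a part of the spindle checkpoint, were 6.69-fold and 6.40-fold higher (edgeR adjusted p = 7.01e-06 and 1.19e-05). In each of these genes the lowest 3A4 library was far above the highest 1E5 library. In bulk RNA fewer cells in a phase and less RNA per cell cannot be told apart. The count stayed at 30 under every alternative, which includes leaving out each of the 6 libraries.

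The promoter of KIF11 is shown because, among mitosis genes called, it had the smallest adjusted p of those with a match to the cell cycle homology region. That element was searched as TTTGAA on both strands and is the element through which the late cell cycle genes are known to be repressed outside division. Of 24 mitosis genes with a promoter in the RefSeq table, 17 held a match (70.8%), against 15.4% of 27305 promoters. The window of 300 bases runs from 250 before to 50 after the RefSeq start (GRCh38.p14, chr10:92592880-92593179, plus strand, written 5′ to 3′), and the capitals mark the match on the opposite strand, 28 bases before the start.
KIF11: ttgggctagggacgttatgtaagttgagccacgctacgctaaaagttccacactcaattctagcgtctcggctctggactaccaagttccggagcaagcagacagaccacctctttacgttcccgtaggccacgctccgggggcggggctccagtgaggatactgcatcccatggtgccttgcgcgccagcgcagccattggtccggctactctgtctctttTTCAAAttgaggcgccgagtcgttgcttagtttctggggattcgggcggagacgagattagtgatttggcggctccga

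Of 37 DNA replication genes 35 were higher with 3A4, none was lower and 2 did not pass (median 1.83). MCM10, which helps activate the replicative helicase (ENSG00000065328; chromosome 10, 13161554 to 13211104), had 32.3, 28.5 and 37.6 CPM with 3A4, against 1.67, 1.69 and 1.93 CPM with 1E5 (log2 fold change 4.21 ± 0.272 SE, edgeR adjusted p = 2.06e-06). GINS1, a subunit of that helicase, had 39.1, 41.4 and 42.7 CPM with 3A4, against 4.73, 5.42 and 5.65 CPM with 1E5 (log2 fold change 2.96 ± 0.214 SE, edgeR adjusted p = 3.92e-06). MCM3, a ring subunit of the helicase, was 4.79-fold higher (edgeR adjusted p = 8.14e-06). The 3A4 libraries were close to one another and lay without overlap above the 1E5 libraries in these 3. LIG1 and CCNE1 were the 2 that did not pass, at 0.22 and 0.56, and were named for that. E2F factors bind promoters of such genes at motifs close to TTTNNCGC, which was found on either strand in 20 of 32 promoters of the list (62.5%) and in 6.9% of all promoters. The promoter of GINS1, the called member with the smallest adjusted p that held a match, is given from RefSeq (GRCh38.p14, chr20:25407423-25407722, plus strand), with the match to the opposite strand in capitals 5 bases after the start.
GINS1: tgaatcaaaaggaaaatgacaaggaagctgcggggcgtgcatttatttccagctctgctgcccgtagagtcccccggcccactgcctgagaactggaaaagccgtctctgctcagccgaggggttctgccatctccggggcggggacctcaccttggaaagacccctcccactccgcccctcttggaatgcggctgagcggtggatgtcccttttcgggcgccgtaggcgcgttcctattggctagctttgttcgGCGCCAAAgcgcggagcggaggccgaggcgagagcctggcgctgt

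Of 20 genes of DNA repair by homologous recombination 17 were higher with 3A4, 1 was lower and 2 did not pass (median 1.71). EXO1, a nuclease that trims DNA ends, had 27.7 ± 2.98 CPM with 3A4, against 3.31 ± 0.229 CPM with 1E5 (log2 fold change 3.06 ± 0.252 SE, edgeR adjusted p = 8.46e-06). BRIP1, a helicase that works with BRCA1, was 6.70-fold higher and FANCI, of the Fanconi anaemia pathway, 4.02-fold (edgeR adjusted p = 3.34e-06 and 1.73e-05). The gene called lower was RBBP8, which starts end resection (-0.68, chosen after its value was seen). Replication-dependent histones, whose messages are made while DNA is copied, were higher in 13 of 16 measured genes, of 19 listed, with none lower (median 2.15). H2BC4 had 23.7, 16.9 and 23.2 CPM with 3A4, against 2.82, 1.24 and 2.13 CPM with 1E5 (log2 fold change 3.36 ± 0.291 SE, edgeR adjusted p = 1.19e-05) and H1-2, a linker histone, had 104, 70.6 and 82.3 CPM with 3A4, against 13.2, 15.0 and 12.3 CPM with 1E5 (log2 fold change 2.66 ± 0.181 SE, edgeR adjusted p = 2.76e-06). H2BC8 and H2AC20 were 9.67-fold and 6.55-fold higher. Histone genes are near copies of one another, so reads may be split among them and single members are uncertain.

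**Figure D2:**
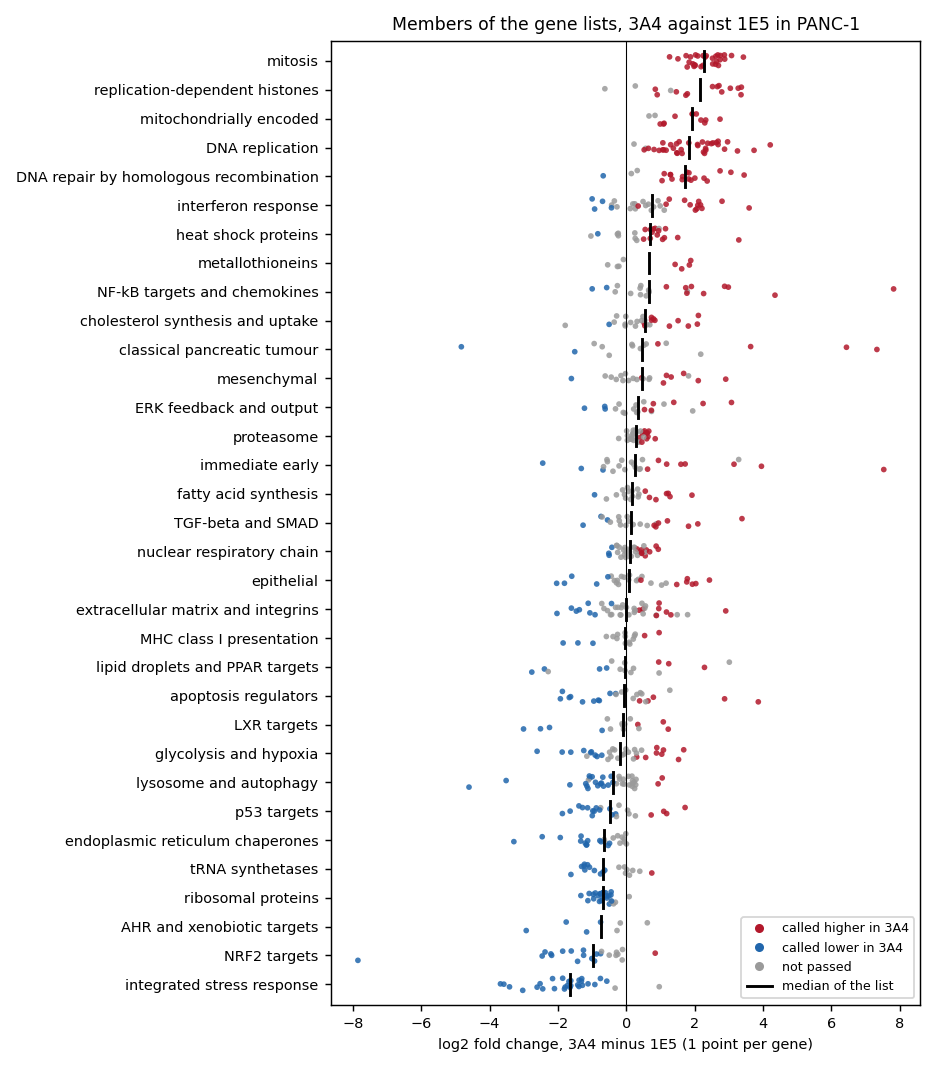
Log2 fold change of 3A4 over 1E5 in PANC-1 (horizontal axis) for each measured member of 33 gene lists (rows, ordered by median), with called members red or blue, members that did not pass grey, and the black bar at the list's median. The mitosis row lies wholly to the right of 0, at 1.27 to 3.43, and in the integrated stress response row 27 of 29 points are blue.

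Genes encoded by mitochondrial DNA were higher with 3A4 in 11 of 13 cases, and none was lower (median 1.93). MT-CYB, the cytochrome b of complex III, had 5613, 5366 and 4537 CPM with 3A4, against 693, 851 and 776 CPM with 1E5 (log2 fold change 2.74 ± 0.136 SE, edgeR adjusted p = 1e-06). MT-ND2, of complex I, had 6221, 5390.2 and 5489 CPM with 3A4, against 1271, 1590.3 and 1595 CPM with 1E5 (log2 fold change 1.94 ± 0.131 SE, edgeR adjusted p = 2.64e-06), and MT-ND3 and MT-ATP8 were 5.01-fold and 4.91-fold higher. None of these 1E5 libraries came within reach of the 3A4 libraries. Together the protein genes of mitochondrial DNA took 7.11% ± 0.257 of the counts with 3A4, 2.53% ± 0.972 with 1E5 and 6.04% ± 0.632 with DMSO (SD, n = 3). Of 34 nuclear genes of the respiratory chain and of mitochondrial DNA upkeep, 9 were higher and 3 lower (median 0.12), with 5 higher without 3A4 replicate 1, and 1 lower without 3A4 replicate 2 or without 1E5 replicate 2. TFAM, which packs mitochondrial DNA, was at 111 ± 3.13 CPM with 3A4, against 68.9 ± 8.01 CPM with 1E5 (log2 fold change 0.68 ± 0.117 SE, edgeR adjusted p = 9.28e-04). POLRMT, the polymerase that transcribes mitochondrial DNA, was at 59.2 ± 1.87 CPM with 3A4, against 84.4 ± 1.35 CPM with 1E5 (log2 fold change -0.51 ± 0.0894 SE, edgeR adjusted p = 0.00104), the other way. COX7A2 and ATP5F1A, subunits of complex IV and of ATP synthase, were 1.83-fold and 1.5-fold higher.

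Of 29 integrated stress response genes measured, 27 were lower with 3A4 than with 1E5, against 18.8% of all genes, and none was higher (median -1.64). ASNS, asparagine synthetase (ENSG00000070669; chromosome 7, 97852118 to 97872542), had 109, 109.8 and 108 CPM with 3A4, against 444, 519.9 and 494 CPM with 1E5 (log2 fold change -2.16 ± 0.199 SE, edgeR adjusted p = 1.68e-05). DDIT4, an inhibitor of the growth kinase mTORC1, had 82.2, 104 and 69.9 CPM with 3A4, against 931, 1236 and 1126 CPM with 1E5 (log2 fold change -3.68 ± 0.291 SE, edgeR adjusted p = 6.75e-06). In both genes the 1E5 libraries were several times above every 3A4 library. SLC3A2, the heavy chain of amino acid transporters, had 219, 192 and 172 CPM with 3A4, against 713, 715 and 592 CPM with 1E5 (log2 fold change -1.79 ± 0.138 SE, edgeR adjusted p = 5.5e-06), and CEBPG, a partner of ATF4, was 3.30-fold lower (edgeR adjusted p = 1.68e-05). ATF4 itself differed by -1.30 on the log2 scale (edgeR adjusted p = 1.56e-04) and DDIT3, the factor CHOP, by -1.31 (0.00967), both named after their values were seen. The members that did not pass were PSPH (-0.33) and ATF5 (0.96), also named after their values were seen. The number called lower was 26 to 28 across the alternatives, and none was called higher in any.

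ATF4 and its partners bind amino acid response elements with the core TGATGNAA. That core was present on either strand in 5 of 23 promoters of the list (21.7%) and in 3.67% of all promoters. SLC3A2, the called member with the smallest adjusted p that held a match, has it after the start (RefSeq, GRCh38.p14, chr11:62881449-62881748, plus strand), where the capitals mark the opposite strand's match 37 bases downstream.
SLC3A2: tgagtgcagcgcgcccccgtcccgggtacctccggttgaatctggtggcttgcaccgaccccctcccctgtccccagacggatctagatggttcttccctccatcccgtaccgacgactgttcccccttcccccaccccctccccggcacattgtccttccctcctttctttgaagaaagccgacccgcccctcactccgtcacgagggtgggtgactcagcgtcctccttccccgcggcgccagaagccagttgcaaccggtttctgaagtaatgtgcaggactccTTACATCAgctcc

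Of 19 cytosolic tRNA synthetase genes, which charge tRNAs with amino acids, 11 were lower with 3A4, 1 was higher and 7 did not pass (median -0.68). AARS1, for alanine, had 212, 214 and 219 CPM with 3A4, against 600.1, 717 and 666 CPM with 1E5 (log2 fold change -1.62 ± 0.116 SE, edgeR adjusted p = 3.75e-06). SARS1, MARS1 and EPRS1, for serine, methionine and the pair of glutamate and proline, were 2.35-fold, 2.32-fold and 1.91-fold lower. The 3A4 libraries of each lay below the 1E5 libraries without overlap. HARS1, for histidine, was the gene called higher (0.75, chosen after its value was seen); it was joined by 1 more without 1E5 replicate 1.

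Chaperones and sensors of the endoplasmic reticulum were lower with 3A4 in 13 of 23 cases, with none higher and 10 that did not pass (median -0.65). HSPA5, the chaperone BiP that holds the stress sensors inactive (ENSG00000044574; chromosome 9, 125234853 to 125241330), had 964, 936 and 932 CPM with 3A4, against 7633, 12177 and 7914 CPM with 1E5 (log2 fold change -3.29 ± 0.185 SE, edgeR adjusted p = 1.13e-06). ERN1, the sensor IRE1, had 23.2, 20.9 and 18.4 CPM with 3A4, against 85.4, 147 and 113 CPM with 1E5 (log2 fold change -2.46 ± 0.214 SE, edgeR adjusted p = 1.22e-05), and the sensor ATF6 had 86.0, 85.8 and 88.6 CPM with 3A4, against 249.5, 182 and 220.3 CPM with 1E5 (log2 fold change -1.32 ± 0.125 SE, edgeR adjusted p = 1.92e-05). HYOU1, a large chaperone, was 2.52-fold lower (edgeR adjusted p = 1.29e-05). In each the groups were far apart. The list was uneven, since CRELD2, SDF2L1 and PDIA4, named after their values were seen, were at -0.01, -0.07 and -0.25 on the log2 scale and did not pass. Without 1E5 replicate 2, 3 members were called higher and 12 lower.

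The ER stress element through which ATF6 acts was searched as CCAAT, 9 bases of any kind and CCACG, on both strands. It was found in 6 of 22 promoters of the list (27.3%) and in 22 of all 27305 (0.0806%). Of the members with a match, HSPA5, HSP90B1 and XBP1 were called lower, and CALR, CANX and CRELD2 did not pass. ERN1, ATF6 and HYOU1, all called lower, held no match in this window. The promoter of HSPA5 (RefSeq, GRCh38.p14, chr9:125241294-125241593, minus strand) carries 1 match, in capitals, that begins 66 bases before the start.
HSPA5: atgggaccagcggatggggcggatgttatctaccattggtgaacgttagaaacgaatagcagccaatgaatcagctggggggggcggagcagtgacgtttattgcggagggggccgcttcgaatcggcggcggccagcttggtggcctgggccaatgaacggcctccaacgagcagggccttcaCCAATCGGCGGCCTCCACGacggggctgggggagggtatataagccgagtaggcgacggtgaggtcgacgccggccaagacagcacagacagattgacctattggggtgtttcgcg

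Targets of NRF2, the factor of the antioxidant response, were lower with 3A4 in 14 of 22 cases and higher in 1 (median -0.97). HMOX1, which breaks down haem, had 314, 221 and 296 CPM with 3A4, against 1769.6, 1155 and 1653 CPM with 1E5 (log2 fold change -2.46 ± 0.187 SE, edgeR adjusted p = 5.18e-06). The ferritin chains FTL and FTH1, which store iron, had 2172, 1922 and 1716 CPM with 3A4, against 8542, 12164 and 9509 CPM with 1E5, and 1279, 1099 and 1157 CPM with 3A4, against 4451, 6274 and 5608 CPM with 1E5 (edgeR adjusted p = 2.06e-06 and 9.09e-06). ABCC3, an exporter of conjugates, was 2.38-fold lower (edgeR adjusted p = 1.53e-05). All 3A4 libraries of these genes stood below all 1E5 libraries. Ferritin genes have many processed pseudogenes, among which reads may be split. UGDH, which makes the sugar for conjugation, was the gene called higher (0.85, chosen after its value was seen). GCLM, the modifier subunit of the first enzyme of glutathione synthesis, had 57.6, 45.0 and 55.0 CPM with 3A4, against 147, 113 and 163 CPM with 1E5 (log2 fold change -1.43 ± 0.155 SE, edgeR adjusted p = 4.68e-05), and its promoter is given as that of the called member with the smallest adjusted p and a match to the antioxidant response element core TGACNNNGC. The core occurred on either strand in 5 of 16 promoters of the list (31.2%) and in 13.6% of all promoters. In GCLM (RefSeq, GRCh38.p14, chr1:93909381-93909680, minus strand) the capitals mark the match to the opposite strand 34 bases before the start.
GCLM: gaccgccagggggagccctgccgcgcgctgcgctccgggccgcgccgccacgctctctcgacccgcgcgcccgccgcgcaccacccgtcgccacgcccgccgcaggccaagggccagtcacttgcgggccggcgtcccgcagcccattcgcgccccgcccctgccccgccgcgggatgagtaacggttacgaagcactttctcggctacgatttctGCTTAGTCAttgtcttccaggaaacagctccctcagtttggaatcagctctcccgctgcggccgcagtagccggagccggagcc

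**Figure D3:**
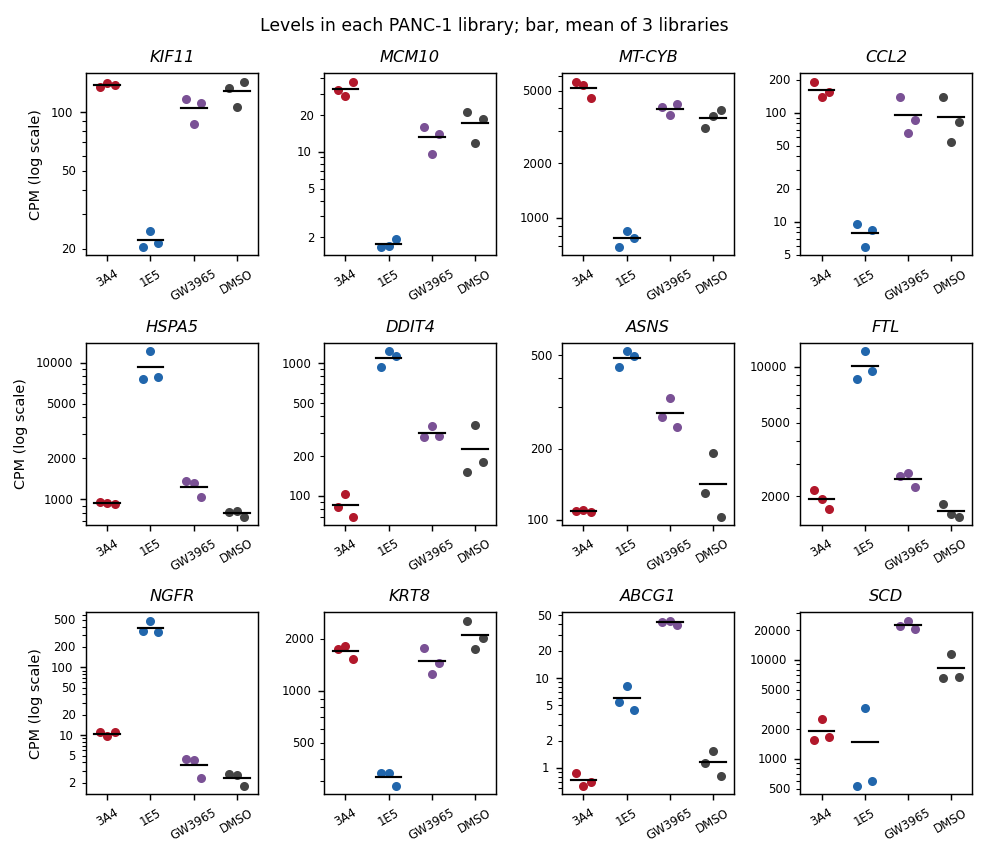
Level of 12 genes in CPM (vertical axes, log scale) in each of the 3 PANC-1 libraries with 3A4, 1E5, GW3965 and DMSO, with the bar at the group mean. For KIF11, MCM10, MT-CYB, CCL2 and KRT8 the 1E5 points lie below those of the other 3 groups, for HSPA5, DDIT4, FTL, ASNS and NGFR they lie above them, and for SCD 1 of the 3 1E5 points stands apart.

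Ribosomal protein genes were lower with 3A4 in 23 of 27 cases and higher in none (median -0.69), within a narrow range of -1.33 to 0.08. RPS2 had 617, 579 and 698 CPM with 3A4, against 1371, 2113 and 1278 CPM with 1E5 (log2 fold change -1.33 ± 0.181 SE, edgeR adjusted p = 2.08e-04). RPL3, RPL13 and RPS12 were 2.12-fold, 2.18-fold and 1.94-fold lower. In these 4 genes 1E5 replicate 2 was the highest library, and the 3A4 libraries lay below all 1E5 libraries. With only the 6 compared libraries in the fit 15 were called lower, and without 1E5 replicate 2, 19 were lower and 1 higher. Reads of these genes may be shared with their many pseudogenes.

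Of 37 lysosome and autophagy genes 18 were lower with 3A4 and 2 were higher (median -0.39). ULK1, the kinase that starts autophagy, had 68.3, 76.1 and 63.9 CPM with 3A4, against 206, 252 and 196 CPM with 1E5 (log2 fold change -1.65 ± 0.161 SE, edgeR adjusted p = 2.33e-05). LAMP3, a lysosomal membrane protein, had 9.0, 9.59 and 10.3 CPM with 3A4, against 126, 85.0 and 120.1 CPM with 1E5 (log2 fold change -3.52 ± 0.401 SE, edgeR adjusted p = 6.34e-05). CTSL, a lysosomal protease, and NBR1, a receptor for autophagy cargo, were 2.10-fold and 1.87-fold lower (edgeR adjusted p = 2.65e-05 and 8.99e-05). No library of one group entered the range of the other. The 2 called higher were the proton pump subunit ATP6V0D1 (1.05) and the channel MCOLN1 (0.93), chosen after their values were seen, and 6 were higher without 1E5 replicate 2.

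Of 23 heat shock proteins and partners, chaperones of the cytosol and mitochondria, 14 were higher with 3A4 and 1 was lower (median 0.71). HSPA6, an inducible HSP70, had 13.2, 6.77 and 13.1 CPM with 3A4, against 1.67, 0.355 and 1.32 CPM with 1E5 (log2 fold change 3.29 ± 0.472 SE, edgeR adjusted p = 2.92e-04), and BAG3, a partner of HSP70, had 269.7, 219.8 and 226 CPM with 3A4, against 96.3, 83.9 and 72.1 CPM with 1E5 (log2 fold change 1.5 ± 0.158 SE, edgeR adjusted p = 3.78e-05). HSPE1, of the mitochondrial folding chamber, was 2.16-fold higher. The gene called lower was HSPA9, the HSP70 of mitochondria, at 740.4 ± 10.1 CPM with 3A4, against 1320.0 ± 25.3 CPM with 1E5 (log2 fold change -0.83 ± 0.0818 SE, edgeR adjusted p = 2.46e-05); without 1E5 replicate 3, 2 were lower. Of 8 genes measured, 7 metallothioneins and the zinc exporter SLC30A1, 4 were higher with 3A4 and none was lower. MT2A had 259, 283 and 307 CPM with 3A4, against 108, 98.0 and 70.6 CPM with 1E5 (log2 fold change 1.62 ± 0.195 SE, edgeR adjusted p = 9.31e-05), and MT1E and MT1A were 3.69-fold and 3.59-fold higher. The call of MT1M (1.43, edgeR adjusted p = 0.0332) ended in 7 alternatives, with no filter on low counts, without the GW3965 libraries, without 3A4 replicate 2 or 3 and without any 1 of the 1E5 replicates. The highest edgeR adjusted p was 0.113, without 3A4 replicate 3. These genes are close copies, so single members are uncertain.

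Targets of the aryl hydrocarbon receptor, a sensor of planar ring compounds, were lower with 3A4 in 4 of the 7 measured of 14 listed, with none higher. CYP1A1, an oxidase and classic target of the receptor, had 1.49, 0.548 and 0.766 CPM with 3A4, against 6.28, 4.44 and 10.8 CPM with 1E5 (log2 fold change -2.93 ± 0.617 SE, edgeR adjusted p = 0.00485) and no count in any DMSO library. TIPARP, a feedback inhibitor of the receptor, had 73.6, 47.1 and 53.5 CPM with 3A4, against 147, 235 and 208 CPM with 1E5 (log2 fold change -1.76 ± 0.195 SE, edgeR adjusted p = 5.35e-05). NQO1, a quinone reductase that is also in the list of NRF2 targets, was 1.69-fold lower (edgeR adjusted p = 0.00117). For these genes the groups did not overlap. CYP1B1 was at -1.16 on the log2 scale (edgeR adjusted p = 0.0170), and this call ended without 3A4 replicate 2 (0.0647), without 3A4 replicate 3 (0.0707) or without 1E5 replicate 3 (0.0773). Without 3A4 replicate 2 or without 1E5 replicate 2, 1 member of the list was called higher.

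Interferon response genes were higher with 3A4 in 13 of 32 cases and lower in 4 (median 0.77). IFIT1, which binds viral RNA, had 70.9, 90.2 and 79.3 CPM with 3A4, against 12.6, 12.5 and 9.44 CPM with 1E5 (log2 fold change 2.80 ± 0.170 SE, edgeR adjusted p = 1.42e-06), and OAS3, which makes a messenger that activates an RNase, had 101 ± 11.1 CPM with 3A4, against 23.2 ± 3.03 CPM with 1E5 (log2 fold change 2.12 ± 0.153 SE, edgeR adjusted p = 3.92e-06). RIGI, a sensor of viral RNA, was 2.39-fold higher (edgeR adjusted p = 2.11e-05). IRF7, a factor that amplifies the response, was at 19.96 ± 2.45 CPM with 3A4, against 40.0 ± 1.58 CPM with 1E5 (log2 fold change -1.0 ± 0.130 SE, edgeR adjusted p = 1.49e-04); its call ended in the fit of all 36 libraries (edgeR adjusted p = 0.0711). The other 3 called lower were BST2 (-0.93), STAT2 (-0.70) and ISG15 (-0.44), named after their values were seen. The number lower was 2 without 3A4 replicate 3, without 1E5 replicate 1 or without 1E5 replicate 2. Of 17 genes of class I antigen presentation 2 were higher (11.8%) and 3 lower (17.6%), beside 18.5% and 18.8% of all genes. HLA-C had 50.7, 84.0 and 64.1 CPM with 3A4, against 190.3, 312 and 215 CPM with 1E5 and HLA-B had 100.2, 94.6 and 79.1 CPM with 3A4, against 224, 331 and 177 CPM with 1E5, lower with 3A4 in every library (edgeR adjusted p = 1.89e-04 and 0.00207), although class I genes share sequence and their counts are uncertain. ERAP2, which trims peptides, was 1.94-fold higher. The call of the peptide transporter TAP2 (0.54) ended without 3A4 replicate 1 (0.0873), without 3A4 replicate 2 (0.0501) or without 1E5 replicate 3 (0.0968), and without any 1 of these 3 libraries 1 member of the list was called higher.

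Of 21 NF-kB targets and chemokines measured, of 30 listed, 9 were higher with 3A4 and 2 were lower (median 0.67). CCL2, a chemokine for monocytes, had 193, 139 and 154 CPM with 3A4, against 9.53, 5.86 and 8.43 CPM with 1E5 (log2 fold change 4.35 ± 0.398 SE, edgeR adjusted p = 1.58e-05). BIRC3, an inhibitor of apoptosis, had 283, 248 and 241 CPM with 3A4, against 38.1, 29.5 and 37.6 CPM with 1E5 (log2 fold change 2.88 ± 0.186 SE, edgeR adjusted p = 2.13e-06). TNFAIP3, which ends NF-kB signalling, and NFKB1, a subunit of the factor, were 3.34-fold and 2.25-fold higher (edgeR adjusted p = 3.59e-04 and 2.02e-04). Each 3A4 library of these genes was above each 1E5 library. The cytokines IL32 (-1.0) and LIF (-0.57) were the 2 called lower, named after their values were seen. CD14, a co-receptor for bacterial lipid that serves here as a marker of blood cells, had 2.97, 4.15 and 4.02 CPM with 3A4, against 0.437, 0.444 and 0.155 CPM with 1E5 (log2 fold change 3.42 ± 0.458 SE, edgeR adjusted p = 1.88e-04). It was the only 1 of the 7 measured markers of other cell types that passed, and 3 passed as higher without 3A4 replicate 1 or without 1E5 replicate 2. Among the other blood markers CD68, of macrophages, had 44.6, 43.3 and 42.5 CPM with 3A4, against 44.5, 77.6 and 49.5 CPM with 1E5, and 11.9 ± 3.05 CPM with DMSO. It did not pass between the compounds (-0.40, edgeR adjusted p = 0.173). CD3E had no count in either group, and PTPRC had 2 counts with 3A4 and none with 1E5.

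Of 25 immediate early genes 8 were higher (32%) and 3 lower (12%), beside 18.5% and 18.8% of all genes. EGR1, an early growth response factor, had 19.9, 17.1 and 19.0 CPM with 3A4, against 1.07, 1.33 and 1.2 CPM with 1E5 (log2 fold change 3.95 ± 0.354 SE, edgeR adjusted p = 1.45e-05), FOS was 8.88-fold higher and NR4A2 3.03-fold higher. JUND, a partner of FOS, went the other way, at 47.3 ± 0.443 CPM with 3A4, against 118 ± 35.5 CPM with 1E5 (log2 fold change -1.32 ± 0.177 SE, edgeR adjusted p = 1.91e-04). Among 21 genes of ERK feedback and output 6 were higher (28.6%) and 3 lower (14.3%). CCND1, cyclin D1, had 228, 260.2 and 229 CPM with 3A4, against 88.9, 97.3 and 87.7 CPM with 1E5 (log2 fold change 1.39 ± 0.102 SE, edgeR adjusted p = 4.22e-06), EPHA4, a receptor kinase, was 8.44-fold higher, SPRED2, an inhibitor of RAS signalling, 1.66-fold higher and the ERK-driven factor ETV5 2.34-fold lower. Of 22 TGF-beta and SMAD genes 7 were higher (31.8%) and 3 lower (13.6%). The ligand TGFB2 had 49.2, 53.1 and 51.6 CPM with 3A4, against 14.8, 8.30 and 13 CPM with 1E5 (log2 fold change 2.09 ± 0.185 SE, edgeR adjusted p = 1.34e-05), and its receptor TGFBR2 was 1.82-fold higher. SMAD6, an inhibitor of the pathway, was 3.53-fold higher, and ID3, an inhibitor of differentiation factors, 2.40-fold lower. The medians of these 3 lists were 0.26, 0.34 and 0.14 on the log2 scale.

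Of 23 p53 targets 13 were lower with 3A4 and 4 were higher (median -0.48). Their list shares GDF15 with the integrated stress response list. GDF15, a secreted stress hormone, had 202, 245 and 199 CPM with 3A4, against 407, 755 and 527 CPM with 1E5 (log2 fold change -1.39 ± 0.213 SE, edgeR adjusted p = 4.48e-04), TP53INP1 was 2.19-fold lower and the death receptor gene TNFRSF10B 2.43-fold lower. POLH, a polymerase that copies damaged DNA, was 2.14-fold higher. CDKN1A, the cell cycle inhibitor p21, was at -0.21 and did not pass (edgeR adjusted p = 0.534; named after its value was seen). Of 24 apoptosis regulators 10 were lower and 5 higher (median -0.08), with 6 lower without any 1 of the 3A4 replicates or without 1E5 replicate 3. BCL2A1, an inhibitor of apoptosis, had 13.2, 18.1 and 16.3 CPM with 3A4, against 1.31, 0.533 and 1.39 CPM with 1E5 (log2 fold change 3.86 ± 0.345 SE, edgeR adjusted p = 1.44e-05), and BCL2L1, which encodes BCL-XL, was 1.73-fold lower. The members that moved were of both kinds, since the pro-apoptotic genes BMF (-1.93), BBC3 (-1.87) and BCL2L11 (-1.67) were among those lower, all named after their values were seen.

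Of 27 epithelial genes 7 were higher with 3A4 (25.9%) and 5 lower (18.5%), beside 18.5% and 18.8% of all genes. KRT8, a keratin of simple epithelia, had 1751, 1827 and 1532 CPM with 3A4, against 333, 334 and 279.6 CPM with 1E5 (log2 fold change 2.43 ± 0.171 SE, edgeR adjusted p = 3.34e-06). JUP, of cell junctions, was 3.45-fold higher. CLDN3, a tight junction protein, went the other way, at 6.73 ± 1.21 CPM with 3A4, against 27.7 ± 2.71 CPM with 1E5 (log2 fold change -2.04 ± 0.168 SE, edgeR adjusted p = 8.46e-06), as did CDH1, E-cadherin, at -1.81 (named after its value was seen). Of 21 mesenchymal genes 7 were higher and 1 lower, and 4 were higher without 3A4 replicate 1, without 3A4 replicate 2 or without 1E5 replicate 1. The gene lower was LOX, a collagen crosslinker (-1.61, named after its value was seen); none was lower without 3A4 replicate 1 or 3, and 2 were without 1E5 replicate 3. CAV1, the coat of caveolae, had 453, 455 and 457 CPM with 3A4, against 124, 88.1 and 105 CPM with 1E5 (log2 fold change 2.11 ± 0.130 SE, edgeR adjusted p = 1.52e-06). SPARC, a matrix glycoprotein, had 52.8, 127 and 78.1 CPM with 3A4, against 3.54, 24.9 and 6.11 CPM with 1E5 (log2 fold change 2.91 ± 0.705 SE, edgeR adjusted p = 0.00731), and its log2 fold change was 4.15 without 1E5 replicate 2, its highest 1E5 library. FN1, fibronectin, was 2.26-fold higher. CNN1 was 3.2-fold higher (edgeR adjusted p = 0.0101), a call that ended in the fit of all 36 libraries (0.190).

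The list of matrix and integrin genes held 8 higher and 8 lower of 39 (20.5% each way), near the 18.5% and 18.8% of all genes. ITGB1, a common integrin chain, had 961, 981 and 936 CPM with 3A4, against 1959, 2387 and 1891 CPM with 1E5 (log2 fold change -1.12 ± 0.111 SE, edgeR adjusted p = 2.66e-05) and ITGB5 was 2.47-fold higher. The collagen genes COL6A2 and COL5A1 were 4.08-fold and 2.76-fold lower. Without 1E5 replicate 2, 14 were higher, without 3A4 replicate 2, 4 were, and without 1E5 replicate 3, 5 were; without 3A4 replicate 1 or 3, 5 were lower. Of 16 measured genes of the classical type of pancreatic tumour, of 29 listed, 4 were higher with 3A4 (25%) and 2 lower (12.5%). With only the compared groups in the fit 2 were higher. AGR2, a disulfide isomerase of mucous cells, had 99.0, 146 and 149 CPM with 3A4, against 8.98, 12.5 and 10.2 CPM with 1E5 (log2 fold change 3.64 ± 0.210 SE, edgeR adjusted p = 1.13e-06). S100P, a small protein that binds calcium, had 1.49, 1.92 and 1.28 CPM with 3A4, against 42.5, 44.0 and 48.1 CPM with 1E5 (log2 fold change -4.83 ± 0.275 SE, edgeR adjusted p = 1.13e-06). The groups were far apart in both genes, in opposite directions. FOXA2, a factor of endoderm, was 1.90-fold higher. TSPAN8, of the cell surface, had no count with 1E5 and 0.839 ± 0.612 CPM with 3A4, at least 20.6-fold higher, where 3 counts in the 3 libraries of 1E5 together stand in for 0. Without 3A4 replicate 1 that bound was 12.2-fold.

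Of 32 glycolysis and hypoxia genes 8 were higher with 3A4 (25%) and 9 lower (28.1%), beside 18.5% and 18.8% of all genes (median -0.18). ENO1 and PGAM1, enzymes of glycolysis, were 2.05-fold and 1.86-fold higher (edgeR adjusted p = 8.66e-05 and 3.21e-05). VEGFA, the vessel growth factor, had 69.1, 81.2 and 67.2 CPM with 3A4, against 398, 458 and 473 CPM with 1E5 (log2 fold change -2.61 ± 0.261 SE, edgeR adjusted p = 2.72e-05), and P4HA2, a collagen hydroxylase, was 2.37-fold lower. The proteasome list had 11 of 31 genes higher with 3A4 and none lower, with small folds (median 0.28, highest 0.85). PSMD2, of the regulatory particle, had 553, 459.7 and 470.5 CPM with 3A4, against 273, 284 and 268 CPM with 1E5 (log2 fold change 0.85 ± 0.130 SE, edgeR adjusted p = 4.66e-04). PSMD1, PSMB2 and PSMA2 were 1.55-fold, 1.52-fold and 1.52-fold higher. That count was 5 without 3A4 replicate 1, 4 without 3A4 replicate 3 and 6 without 1E5 replicate 3.

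Among genes with at least 2 CPM in a group and no overlap between groups, the 10 highest fold changes included readthrough loci and a pseudogene whose counts are uncertain. INO80B-WBP1 and SENP3-EIF4A1, transcripts that read through from one gene into the next, had no count with 1E5 and 20.6 ± 4.27 and 17.4 ± 12.3 CPM with 3A4, and the pseudogene GNRHR2P1 had 2.83 ± 0.583 CPM. The bounds were at least 506-fold, 427-fold and 69.4-fold higher, and that of SENP3-EIF4A1 was 256-fold without 3A4 replicate 3. The call of SENP3-EIF4A1 ended with limma-voom and without 3A4 replicate 3 or any 1 of the 1E5 replicates (adjusted p = 0.384 with limma-voom and up to 0.0580 with edgeR). That of GNRHR2P1 ended with limma-voom (0.186) and without 1E5 replicate 3 (0.0552). FAM111B, a protease linked to DNA replication (ENSG00000189057; chromosome 11, 59107185 to 59127410), had 39.3, 42.5 and 40.0 CPM with 3A4, against 1.15, 0.488 and 0.890 CPM with 1E5 (log2 fold change 5.57 ± 0.326 SE, edgeR adjusted p = 1.13e-06). It was the only 1 of the 10 above 30 CPM in every 3A4 library, a measure of counts without regard to gene length.

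The rest of the 10 had low counts in both groups. ABCA13, a lipid transporter, had 2.57, 3.05 and 2.81 CPM with 3A4, against 0, 0.133 and 0 CPM with 1E5. SCNN1G, a subunit of the epithelial sodium channel, had 2.25, 3.40 and 1.85 CPM with 3A4, against 0, 0 and 0.116 CPM with 1E5, and TMEM255A had 0.843, 2.93 and 2.94 CPM with 3A4, against 0, 0 and 0.0774 CPM with 1E5. CBLN2, a synapse organiser, COL2A1, the collagen of cartilage, and SELPLG, a ligand of selectins, each had counts in a single 1E5 library, replicate 2, and stood at 3.75, 2.36 and 2.24 CPM with 3A4. All 6 passed between 3A4 and 1E5 (edgeR adjusted p up to 0.00639). With DMSO the mean levels of CBLN2 and COL2A1 were above those with 3A4, at 14.2 ± 2.17 and 5.93 ± 2.11 CPM. For neither gene did 3A4 against DMSO pass (edgeR adjusted p = 0.0566 and 0.156).

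Among the 10 lowest, NGFR, the low-affinity receptor of nerve growth factor (ENSG00000064300; chromosome 17, 49495293 to 49515017), had by far the most counts with 1E5, without regard to gene length. It had 11, 9.82 and 11.1 CPM with 3A4, against 339, 489.9 and 333 CPM with 1E5 (log2 fold change -5.19 ± 0.258 SE, edgeR adjusted p = 1e-06). The DMSO level was 2.37 ± 0.505 CPM. Both compounds were above the vehicle, 3A4 by 2.17 and 1E5 by 7.36 on the log2 scale (edgeR adjusted p = 0.00114 and 1.55e-07). INHBE, an activin subunit, had 0.281, 0.313 and 0.319 CPM with 3A4, against 16.6, 5.50 and 15.3 CPM with 1E5 (log2 fold change -5.34 ± 0.484 SE, edgeR adjusted p = 1.53e-05), and SLC30A2, a zinc transporter, had 0.361, 0.196 and 0 CPM with 3A4, against 33.8, 6.57 and 22.1 CPM with 1E5 (log2 fold change -6.63 ± 0.930 SE, edgeR adjusted p = 5.04e-04), which became -7.42 without 3A4 replicate 1. CHRNE, an acetylcholine receptor subunit, was 38.0-fold lower. DMGDH, a mitochondrial dehydrogenase, rested on few counts with 3A4, at 0, 0.157 and 0.0639 CPM with 3A4, against 5.28, 3.37 and 6.85 CPM with 1E5 (edgeR adjusted p = 1.3e-04). ALDH1L1, an enzyme of folate metabolism, had no count with 3A4 and 5.61 ± 1.26 CPM with 1E5, at least 124-fold lower. CARMIL3 was at least 91.5-fold lower, with 1E5 replicate 2 the highest (0, 0 and 0 CPM with 3A4, against 1.39, 8.79 and 2.28 CPM with 1E5), and the bound was 40.5-fold without that library. The antisense gene VLDLR-AS1 and the unnamed locus ENSG00000272647 were at least 70.9-fold and 52.2-fold lower, and reads of an antisense gene cannot be told from its partner's where the counting setting is unknown. ZSCAN10, a zinc finger gene, likewise had 0.201, 0 and 0 CPM with 3A4, against 3.26, 0.621 and 3.56 CPM with 1E5 (edgeR adjusted p = 0.010).

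Against DMSO in the same fit, 1367 genes differed with 3A4 (7.37%), 655 of them higher (3.53%) and 712 lower (3.84%). With 1E5 7248 differed (39.1%), 3660 of them higher (19.7%) and 3588 lower (19.3%). The comparisons share libraries, so their values are given side by side. Genes called higher with 3A4 than with 1E5 had a median log2 fold change against DMSO of 0.15 with 3A4 and -0.92 with 1E5, and genes called lower had -0.13 with 3A4 and 0.78 with 1E5. The count of 1367 depended on single libraries. It was 429 without 3A4 replicate 1, 737 without 3A4 replicate 2, 495 without 3A4 replicate 3, 532 without DMSO replicate 2 and 611 without DMSO replicate 3. It was 3101 without 1E5 replicate 2, a library that is not itself in that contrast.

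In the mitosis list no gene was called against DMSO with 3A4 (median 0.30) and 30 were lower with 1E5 (median -2.02). KIF11 was at 138 ± 3.19 CPM with 3A4 and 128 ± 18.9 CPM with DMSO. For DNA replication 2 were higher with 3A4 and 32 lower with 1E5. In the integrated stress response 2 were higher and 2 lower with 3A4, whereas 27 were higher and 1 lower with 1E5. HSPA5 differed from DMSO by 0.25 with 3A4 (edgeR adjusted p = 0.391) and by 3.54 with 1E5 (edgeR adjusted p = 4.44e-07) on the log2 scale, at a DMSO level of 792 ± 37.2 CPM. Ribosomal protein genes had 0 called with 3A4 and 23 higher with 1E5. Of 26 genes of cholesterol synthesis and uptake 4 were lower and 1 higher with 3A4, and 18 were lower and 2 higher with 1E5. The 3A4 counts against DMSO changed without 1E5 replicate 2, when 16 cholesterol genes were lower, 1 mitosis gene, 4 replication genes and 4 stress response genes were higher, and of the ribosomal protein genes 1 was higher and 2 lower. Without DMSO replicate 3, 1 mitosis gene was higher. The 2 replication genes became 0 without 3A4 replicate 2 or 3 or DMSO replicate 2 or 3, and 1 without 3A4 replicate 1. In the stress response 1 gene was higher without 3A4 replicate 1 and 4 without DMSO replicate 2, and none was lower without 3A4 replicate 1 or 3 and 1 without 3A4 replicate 2 or DMSO replicate 2. With 1E5 the stress response gene called lower was lost without 1E5 replicate 1 or 3 or DMSO replicate 1 or 3, and 1 cholesterol gene was higher without DMSO replicate 2. The cholesterol gene called higher with 3A4 was lost without any 1 of the 3A4 replicates and without DMSO replicate 2 or 3.

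Several lists held genes called for 3A4 against DMSO, beside 3.53% higher and 3.84% lower of all genes, and not all are named. Higher were 7 of 21 ERK genes (4 to 10 across alternatives) and 4 of 21 NF-kB targets (2 to 10). Matrix and integrin genes had 8 of 39 higher (4 to 10) and 4 lower (0 to 10). Lower were 5 of 21 fatty acid synthesis genes (4 to 10) and 4 of 15 LXR targets (1 to 6), with none higher. With 1E5, 15 and 6 genes of these 2 lists were lower, and 2 and 5 higher. Replication-dependent histones were higher with 3A4 in 9 of 16 cases (median 1.39) and lower with 1E5 in 5, or 3 without DMSO replicate 3 (median -0.37). H1-2 differed by 2.52 with 3A4 (edgeR adjusted p = 8.28e-05) and by -0.15 with 1E5 (edgeR adjusted p = 0.533), at a DMSO level of 15.0 ± 0.885 CPM. Immediate early genes were higher with 3A4 in 7 of 25 and with 1E5 in 8. The histone count was 5 without 3A4 replicate 1, and the immediate early count was 4 without 3A4 replicate 1, 3A4 replicate 3 or DMSO replicate 3 and 12 without 1E5 replicate 2. EGR1 stood at 3.14 with 3A4 and -0.81 with 1E5 (edgeR adjusted p = 8.58e-04 and 0.0788). BCL2A1 was 2.88 above DMSO with 3A4 (edgeR adjusted p = 0.00113). HMOX1 was above DMSO with both, by 1.23 with 3A4 and 3.69 with 1E5 (edgeR adjusted p = 0.00329 and 4.62e-07), as was UPP1, uridine phosphorylase, by 0.93 and 3.43. FASN was below it with both, at -1.24 and -2.46, and LSS likewise, at -1.09 and -2.35. The call of FASN for 3A4 against DMSO ended without 3A4 replicate 1 (edgeR adjusted p = 0.0592) and without 3A4 replicate 3 (0.0591). EGR1 passed for 1E5 against DMSO without DMSO replicate 3 (0.0104).

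**Figure D4:**
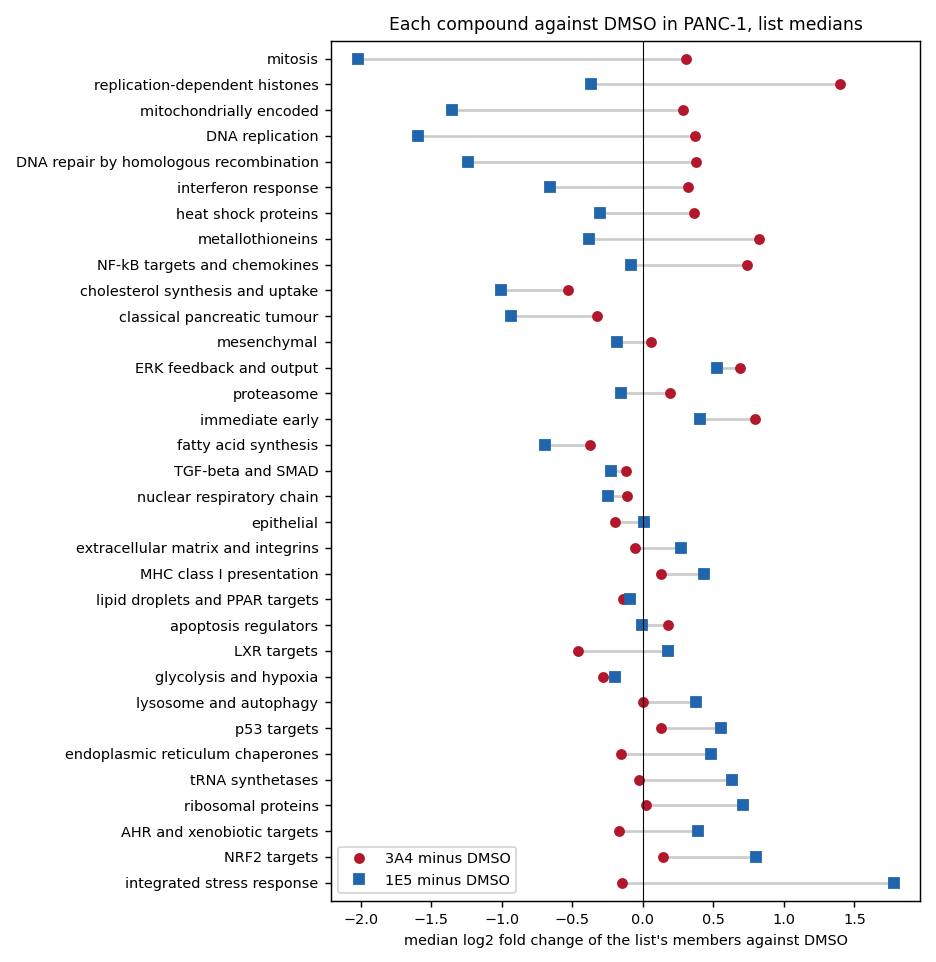
Median log2 fold change against DMSO (horizontal axis) of the measured members of 33 gene lists (rows) for 3A4 (red circles) and 1E5 (blue squares) in PANC-1, joined by a grey line per list. For mitosis the circle is at 0.30 and the square at -2.02, for the integrated stress response at -0.15 and 1.78, and for replication-dependent histones at 1.39 and -0.37.

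The same comparison was made in the other lines in 1 fit of all 36 libraries over 22132 genes, in which 6416 genes were called in PANC-1 (29%), 3225 higher (14.6%) and 3191 lower (14.4%). In MIA PaCa-2 6448 were called (29.1%), 3336 higher (15.1%) and 3112 lower (14.1%). In BxPC-3 9 were called (0.0407%), 7 higher (0.0316%) and 2 lower (0.00904%), and 1951 had an unadjusted p under 0.05. BxPC-3 was kept in another medium than the other lines, so line and medium cannot be told apart. Depth was uneven in MIA PaCa-2, where the library of 3A4 replicate 1 had 8889927 counts. Its DMSO and GW3965 libraries, which share the estimate of the spread, had as few as 3609582 and 2701393 counts. The difference between lines was itself tested. Between PANC-1 and MIA PaCa-2 it passed for 3138 genes (14.2%), of which 1405 had the higher fold change of 3A4 over 1E5 in PANC-1 (6.35%) and 1733 the lower (7.83%), and 354 were called in both lines with opposite signs. Between PANC-1 and BxPC-3 it passed for 3491 genes (15.8%), 1788 with the higher fold change in PANC-1 (8.08%) and 1703 with the lower (7.69%).

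All 30 mitosis genes were also higher with 3A4 in MIA PaCa-2, at a median of 2.22, beside 2.27 in PANC-1, and 3 of 30 differed between the lines. In BxPC-3 none was called (median -0.01), and by the test of the difference 29 of 30 had a higher fold change in PANC-1. For DNA replication 34 of 37 and for homologous recombination 17 of 20 had a higher fold change in PANC-1 than in BxPC-3. Of 29 integrated stress response genes 26 were lower with 3A4 in MIA PaCa-2, 5 differed between PANC-1 and MIA PaCa-2, and 19 had a lower fold change in PANC-1 than in BxPC-3. HSPA5 was at -3.30 in PANC-1, -0.85 in MIA PaCa-2 and -0.04 in BxPC-3, and PANC-1 differed from both (edgeR adjusted p = 7.76e-08 and 2.41e-10).

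Other lists separated PANC-1 from MIA PaCa-2. By the test of the difference ribosomal protein genes had a lower fold change of 3A4 over 1E5 in PANC-1 in 14 of 27 cases, with medians of -0.69 in PANC-1 and -0.01 in MIA PaCa-2. Nuclear respiratory chain genes were lower in 15 of 34, at 0.11 in PANC-1 and 0.72 in MIA PaCa-2, where 28 were called higher with 3A4. Interferon response genes were higher in PANC-1 in 10 of 32, at 0.75 and -0.35, and p53 targets in 9 of 23, at -0.50 and -1.11. Chaperones of the endoplasmic reticulum were lower in PANC-1 in 10 of 23 and higher in 2.

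For each line the genes named are those whose test of the difference from PANC-1 gave the lowest p. SEMA3A, a secreted axon guidance factor, had 66.7, 67.8 and 64.1 CPM with 3A4, against 10.7, 10.9 and 8.86 CPM with 1E5 in PANC-1 (log2 fold change 2.70 ± 0.113 SE, edgeR adjusted p = 6.9e-07). In MIA PaCa-2 it differed by 0.07 and in BxPC-3 by -0.18 on the log2 scale (edgeR adjusted p of the difference = 5.01e-11 and 5.31e-12). UPP1 had 281, 301 and 278 CPM with 3A4, against 1799.7, 1379.6 and 1687 CPM with 1E5 in PANC-1, with a log2 fold change of -2.50, against -1.18 in MIA PaCa-2 and 0.84 in BxPC-3. SCARA3, a scavenger receptor, was at 3.45 in PANC-1, 2.46 in MIA PaCa-2 and -0.44 in BxPC-3. CCDC85B was called in both PANC-1 and MIA PaCa-2 with opposite signs, at -1.15 and 2.02. CHTF18, of a clamp loader, and SAPCD2, of spindle orientation, did not pass in PANC-1, at 0.17 (95% interval -0.17 to 0.51) and -0.19 (95% interval -0.79 to 0.40), and were at 2.61 and 3.80 in MIA PaCa-2.

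**Figure D5:**
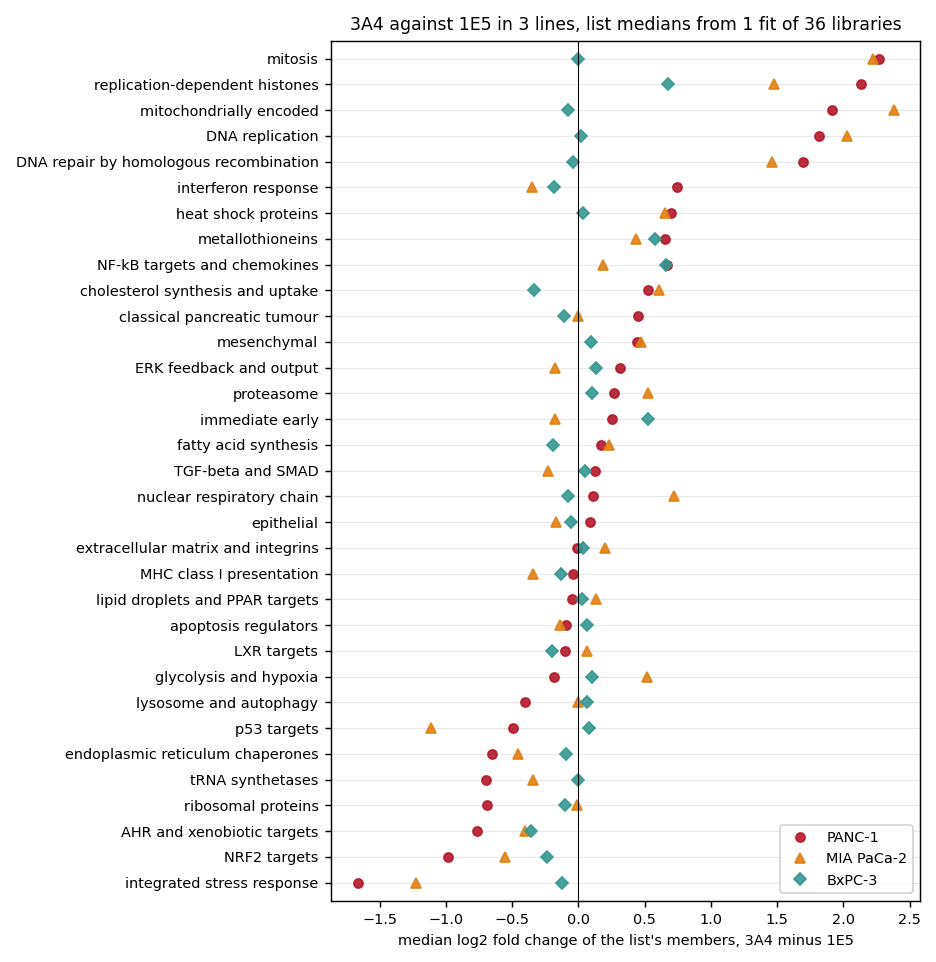
Median log2 fold change of 3A4 over 1E5 (horizontal axis) of the measured members of 33 gene lists (rows) in PANC-1 (circles), MIA PaCa-2 (triangles) and BxPC-3 (diamonds), all from 1 fit of 36 libraries. For mitosis PANC-1 and MIA PaCa-2 lie at 2.27 and 2.22 and BxPC-3 at -0.01, and for ribosomal proteins PANC-1 lies at -0.69 with MIA PaCa-2 at -0.01 and BxPC-3 at -0.10.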

How the data were processed

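RNA of PANC-1, MIA PaCa-2 and BxPC-3 cells was sequenced as stranded total RNA. Per the submitters' processing notes, the tools were StringTie 1.3.1c, SAMtools 1.3, HISAT2 2.0.2 and Trim Galore 0.4.4, with the build GRCh38, and the values the authors deposited are raw counts, in whole numbers, for each gene in each library. Which annotation, strand setting and rule for reads that map to several places they used is not given in the sources used here, so overlapping, antisense and copied genes are uncertain. Of 58658 lines, 407 name transcripts and 8 name assembled loci without a gene, which were left out (at most 0.00396% of a library's counts). A symbol was found for 57532 of 58243 genes, and GENCODE 29 gave positions and types. Promoters come from RefSeq (GRCh38.p14).

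Groups follow the sample titles. Counts of the 12 PANC-1 libraries were filtered (filterByExpr, minimum count 10), TMM-scaled and tested with edgeR 4.0.16 in R 4.3.3 (quasi-likelihood, 1 mean per group), with Benjamini-Hochberg adjustment over all genes tested and a threshold of 0.05. The line comparison used 1 fit of 36 libraries. The fits were also run on simulated counts, in which a small set of genes was changed in the PANC-1 3A4 group. The real comparison called 37.3% of genes and had a library that stood apart, so those runs do not show its error rate. Alternatives were RLE scaling, no filter, DESeq2 1.42.0, limma-voom (limma 3.58.1), a replicate block, other sets of libraries and each library left out in turn; list counts under these settings and bounds without a library were added after seeing the data. The contrast, the 34 gene lists and the tests were chosen with earlier results of these data known. Some genes are in more than 1 list, so the list counts are not independent of one another. Genes named are 8 LXR genes, the 10 highest and 10 lowest called genes with at least 2 CPM in a group and no overlap, up to 4 called members per list by smallest p, and 4 genes per line comparison. Others are marked as named after their values were seen, except members named for their promoter. A few genes that the rule names are not reported here. Fold bounds set 3 counts in place of 0, and intervals cover 95%. Human sequence is printed from the reference alone.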

Additional observations from a re-analysis of the deposited data

Results flagged for a closer look

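The difference between 3A4 and 1E5 was not the same in PANC-1 as in the other lines, by a test of that difference in 1 fit of 36 libraries with edgeR. It passed for 3138 genes between PANC-1 and MIA PaCa-2 and for 3491 genes between PANC-1 and BxPC-3. The log2 fold change of 3A4 over 1E5 in PANC-1 minus that in MIA PaCa-2 was -2.44 for CHTF18, -4.005 for SAPCD2, -3.17 for CCDC85B and 2.63 for SEMA3A. In PANC-1 minus BxPC-3 it was 3.88 for SCARA3, -3.26 for HSPA5, 2.88 for SEMA3A and -3.36 for UPP1. BxPC-3 was kept in another medium, so line and medium cannot be told apart.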

How the results depend on the processing

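The number of genes called between 3A4 and 1E5, 6914, ranged from 5327 with only the 6 compared libraries in the fit to 7666 with DESeq2, and every call shared with an alternative kept its direction. Without 1 library of either compound it was 5451 to 7286. Counts against DMSO were 429 to 3101 for 3A4 and 5658 to 7789 for 1E5 when 1 library was left out. The count for 3A4 against DMSO, 1367, became 903 with no filter on low counts, 2564 with DESeq2, 824 when the GW3965 libraries were left out and 2403 with only the compared groups. The PANC-1 minus MIA PaCa-2 count, 3138, became 1945 with only the compared groups; the cause was not tested for any of these. Line comparison counts were 2451 to 3260 against MIA PaCa-2 and 2695 to 3334 against BxPC-3 with 1 PANC-1 library left out. SREBF1, at -0.11 and not called, ranged from -0.43 without 1E5 replicate 3 to 0.77 without 1E5 replicate 2. Of 2281 single-gene values of the main contrast under alternatives, 2253 stayed on their side of the threshold, 26 lost the call, 1 gained it, and 1 gained it with the opposite sign (SREBF1 without 1E5 replicate 2). In all, 8 values of 4 genes had another sign, those of ABCA1, SCD, SAPCD2 and SREBF1, and none of these genes was called with all libraries.

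Same-numbered libraries of 3A4 and 1E5 shared little deviation over all genes (correlations 0.063, 0.035 and -0.024), beside -0.064 to 0.026 for differently numbered ones. A correlation over all genes cannot exclude pairing in some of them, and the labels do not say whether the numbers pair libraries. A replicate block gave 7258 calls for 3A4 against 1E5, 1948 and 7604 for 3A4 and 1E5 against DMSO, and 3839 and 4123 for the line comparisons.

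Depth limits the genes near the filter. Of the lists, 4 hold a gene with no count in one group, 5 genes in all, and no list median moved with these at their bounds. RLE scaling moved the median of all genes by less than 0.1 on the log2 scale.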
